A study of Mus musculus with 6 samples.

Results

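The 10 genes described here belong to canonical Wnt signalling and were chosen by name as rows of the deposited expression table. They are 6 feedback targets, Axin2, Lef1, Tcf7, Sp5, Nkd1 and Notum, and 4 secreted inhibitors of the Frizzled-related family, Sfrp1, Sfrp2, Sfrp5 and Frzb. All 10 were among the 24062 gene symbols counted and among the 15187 with enough reads to be tested. They were measured by polyA-selected RNA sequencing in heads of C57BL/6 mouse embryos at embryonic day 8.5. Mutant heads had the genotype Prdm15 tm1a-/-, heterozygous heads Prdm15 tm1a+/-, and wild-type heads Prdm15 tm1a+/+, with 2 libraries each. The tm1a design inserts a cassette into the gene (a knockout-first allele) and acts in all cells, and Prdm15 encodes a zinc finger protein of the PRDM family. The series title names Otx2, a homeobox gene of the forebrain and midbrain, and forebrain development. The comparisons address how these Wnt pathway genes differ in the head when Prdm15 carries the allele.

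In canonical Wnt signalling, a secreted Wnt protein binds a Frizzled receptor with its partner Lrp5 or Lrp6, which stops the destruction complex from degrading β-catenin. β-catenin then joins DNA-binding factors of the TCF/LEF family and switches on target genes, several of which damp the signal in turn. Frizzled-related proteins resemble the Wnt-binding domain of Frizzled receptors and bind Wnts outside the cell. In the early embryo low Wnt activity at the front of the neural plate is needed for forebrain identity, while higher activity marks the midbrain, the trunk and the tailbud.

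Reads assigned to genes ranged from 29412227 to 40439234 per library. By the labels there were 2 libraries of each genotype. Litters are not given, so a p-value reflects how far these few libraries scatter. The titles of both heterozygous libraries open with a letter and those of the other libraries with a number. What this stands for is not given. The count file attached to mutant replicate 1 bore the title of wild-type replicate 2, and the file attached to wild-type replicate 2 that of mutant replicate 1. Each of the 6 files had its zeros at the same genes as the column of the deposited RPKM table (reads scaled by gene length and library size) that carries the title in its file name, with 0 genes differing. The closest other column differed at 1355 genes. Values below follow the titles. Results with the files as attached are given for the genes that passed in mutant against wild-type heads and, at the end, for values that changed sign. Whole-gene counts of Prdm15 were 26.6 and 32.0 CPM (read counts scaled to a common library size) in mutant, 28.3 and 31.8 in heterozygous and 35.2 and 32.6 in wild-type libraries, so they did not check the genotype labels. Otx2 was at 42.5 and 24.9 CPM in mutant, 75.4 and 71.9 in heterozygous and 109 and 86.1 in wild-type libraries, a marker of the head that was present in all 6. Xist, an RNA of the inactive X chromosome, was at 1274 and 1100 CPM in mutant, 0.354 and 0.268 in heterozygous and 0.266 and 1314 in wild-type libraries. It was thus high in both mutant and low in both heterozygous libraries, so in that comparison it cannot be told apart from genotype. Its part in the results was not tested.

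The promoters of 8 of the 10 genes, in 12 windows, are in the RefSeq table on GRCm38.p6, each window running from 250 bases before to 50 after an annotated start. Notum and Sfrp1 are not among them. Both strands were searched for the TCF/LEF core words CTTTGAT and CTTTGTT, which share all but 1 letter. Of all 32851 windows, 9.3% held either word and 0.55% held at least 2. Of the 12 windows of these genes 1 held them, that of Sp5, with CTTTGTT on the opposite strand from position -222 relative to the start and CTTTGAT from position -104. A match is a description of the letters, not of binding. The sequences, with the matches in capitals, are of Sp5 as the window with matches and 3 windows without any: Axin2 and Sfrp2, genes that were lower in mutant heads, and Sfrp5, which was higher.
Sp5, chr2:70474673-70474972, plus strand: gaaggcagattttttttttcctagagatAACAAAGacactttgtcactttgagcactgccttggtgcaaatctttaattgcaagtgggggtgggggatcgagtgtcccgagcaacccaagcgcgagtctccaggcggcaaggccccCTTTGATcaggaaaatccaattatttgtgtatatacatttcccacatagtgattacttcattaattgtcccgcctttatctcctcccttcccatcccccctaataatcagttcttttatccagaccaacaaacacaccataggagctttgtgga
Axin2, chr11:108920099-108920398, plus strand: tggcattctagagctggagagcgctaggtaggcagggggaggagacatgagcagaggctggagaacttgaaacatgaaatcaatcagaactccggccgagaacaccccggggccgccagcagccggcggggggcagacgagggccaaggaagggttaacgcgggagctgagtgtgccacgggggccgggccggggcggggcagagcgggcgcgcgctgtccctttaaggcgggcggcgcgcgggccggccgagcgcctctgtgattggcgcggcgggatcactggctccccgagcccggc
Sfrp2, chr3:83766071-83766370, plus strand: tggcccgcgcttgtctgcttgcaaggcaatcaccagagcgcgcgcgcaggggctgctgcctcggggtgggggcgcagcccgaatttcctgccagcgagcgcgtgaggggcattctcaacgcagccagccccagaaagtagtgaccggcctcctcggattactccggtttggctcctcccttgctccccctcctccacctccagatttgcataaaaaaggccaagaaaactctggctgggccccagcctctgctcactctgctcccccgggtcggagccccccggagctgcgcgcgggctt
Sfrp5, chr19:42202203-42202502, minus strand: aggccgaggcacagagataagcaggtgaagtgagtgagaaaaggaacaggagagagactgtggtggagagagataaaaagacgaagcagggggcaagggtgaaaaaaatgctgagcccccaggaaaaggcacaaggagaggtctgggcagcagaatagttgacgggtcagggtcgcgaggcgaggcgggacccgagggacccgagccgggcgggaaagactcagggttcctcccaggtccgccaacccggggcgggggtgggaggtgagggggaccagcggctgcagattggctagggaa
These windows also differed in composition. The GC content was 45% in the Sp5 window, 70% in that of Axin2, 66% in that of Sfrp2 and 61.3% in that of Sfrp5.

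In mutant against wild-type heads, the feedback genes Axin2 and Nkd1 and the inhibitor genes Sfrp1 and Sfrp2 fell to between 0.516 and 0.702 of the wild-type level, while the inhibitor gene Sfrp5 rose 7.25-fold. Axin2, Nkd1 and Sfrp1 take the opposite sign when libraries are scaled to neural progenitor genes, which moved the median log2 value over all genes up by 0.81 and gave 11388 genes higher and 362 lower, against 2594 and 2060 in the main scaling. Under that scaling Sfrp2 kept its sign but not its call, at -0.15 (adjusted p = 0.332, edgeR). That scaling adds nearly the same amount to every gene. Relative to the shift, Axin2 at -0.64, Nkd1 at -0.65, Sfrp1 at -0.51 and Sfrp2 at -0.96 return to their main values by construction. This is therefore no separate test. The other 5 genes did not pass in the main scaling. Under the neural scaling Lef1, Tcf7, Sp5, Sfrp5 and Frzb passed, all as higher, where 77.4% of all genes passed. In the main scaling 5 of 10 passed edgeR's quasi-likelihood test at an adjusted p of 0.05, 1 higher and 4 lower. Of all genes tested 30.6% passed there, 17.1% higher and 13.6% lower. The median log2 fold change of the 10 was -0.10, against -0.02 for all genes tested. The mutant and wild-type libraries did not overlap for 7 of the 10, as for 71% of all genes. Of the 7, Lef1, Sfrp5 and Frzb were higher, against 34.9% of all genes, and the other 4 lower, against 36.1%. With the files as attached 0 of 10 passed, as did 0 genes in all, with 318 genes at an unadjusted p under 0.05. In the authors' deposited table the same 5 genes have a false discovery rate under 0.05, from 1.92e-39 for Sfrp5 to 9.66e-05 for Sfrp1.

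**Figure D1:**
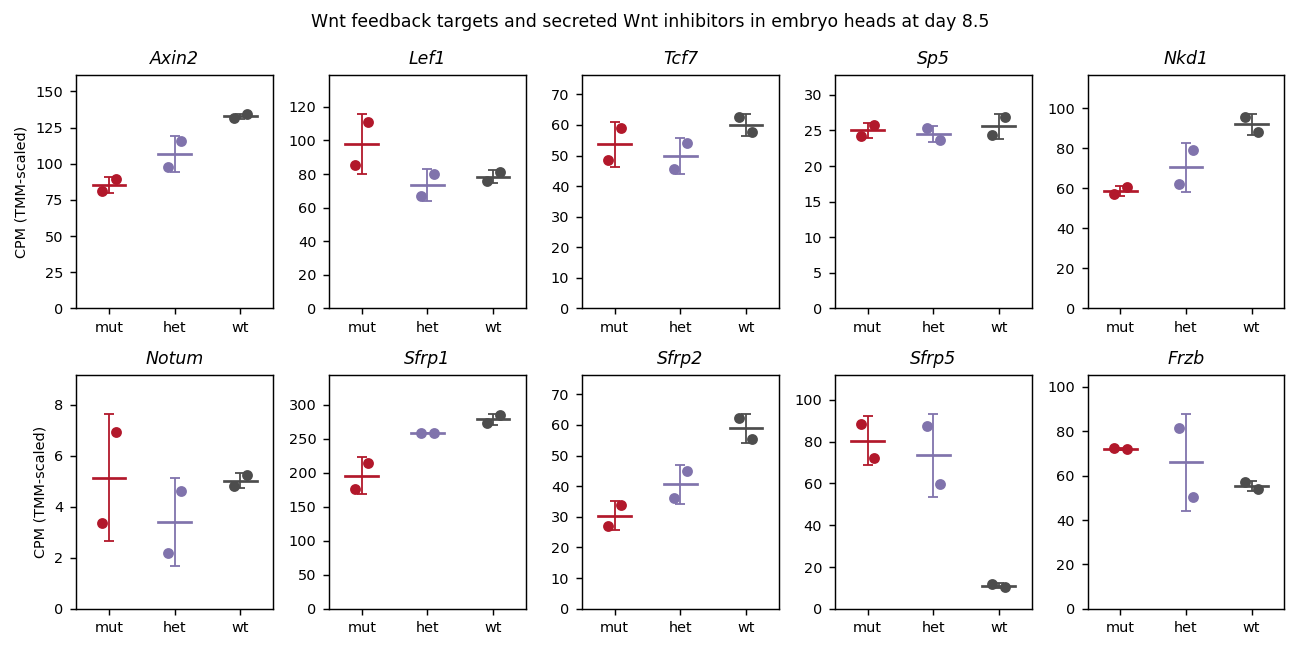
Level of each gene in CPM (TMM-scaled, linear axes from 0) in mutant, heterozygous and wild-type libraries, titles deciding the group; points are libraries, horizontal lines group means and bars the SD (n = 2 each). Axin2, Nkd1, Sfrp1 and Sfrp2 are lowest in the mutant, intermediate in the heterozygous and highest in the wild-type libraries (the mutant sign of Axin2, Nkd1 and Sfrp1 turns under scaling to neural progenitor genes), and Sfrp5 stands at 59.5 CPM or above in the 4 libraries with the allele, against at most 12.0 CPM in wild type.

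Axin2 (chromosome 11, 108920349 to 108950783, plus strand, GRCm38), a scaffold of the β-catenin destruction complex that is itself switched on by Wnt in many tissues, was counted at 81.3 and 89.4 CPM in mutant, 97.9 and 116 CPM in heterozygous and 132 and 134 CPM in wild-type libraries. Every mutant library was below every heterozygous one, and those below both wild-type ones. Relative to wild type the mutant log2 fold change came to -0.64 (SE 0.09, 95% interval -0.86 to -0.42), with an adjusted p of 0.00594 in edgeR's quasi-likelihood test. Heterozygous against wild-type libraries gave -0.32 (SE 0.09, adjusted p = 0.106, edgeR), which did not pass. Taking files as attached, mutant over wild type gave 0.07 (SE 0.31, adjusted p = 1.00, edgeR).

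Nkd1 (chromosome 8, 88521354 to 88594884, plus strand), whose product binds Dishevelled and damps Wnt signalling, stood at 57.0 and 60.5 CPM in mutant, 62.0 and 79.3 CPM in heterozygous and 95.9 and 88.3 CPM in wild-type libraries. It showed the same order as Axin2, without overlap between any of the genotypes. Mutant heads differed from wild type by -0.65 on the log2 scale (SE 0.12), adjusted p = 0.0139 in edgeR's quasi-likelihood test. The call was lost on leaving out any of 3 libraries. Without mutant replicate 1 the adjusted p was 0.0805, without mutant replicate 2 it was 0.0510 and without wild-type replicate 1 it was 0.0642 (edgeR). In heterozygous against wild-type heads it was -0.38 (SE 0.12, adjusted p = 0.136, edgeR). Taking files as attached, the mutant comparison gave -0.04 (SE 0.33, adjusted p = 1.00, edgeR).

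Lef1 and Tcf7 encode TCF/LEF factors, the partners of β-catenin on DNA, and are targets of the pathway as well. Lef1 (chromosome 3, 131110471 to 131224356, plus strand) was at 85.5 and 111 CPM in mutant, 67.0 and 80.1 CPM in heterozygous and 75.8 and 81.1 CPM in wild-type libraries. Both mutant libraries were above the other 4, by a margin that mutant replicate 2 mostly set. The log2 fold change against wild type was 0.32 (SE 0.14, 95% interval -0.03 to 0.68), adjusted p = 0.142 in edgeR's test. Tcf7 (chromosome 11, 52252371 to 52283014, minus strand) was at 48.5 and 58.9 CPM in mutant, 45.7 and 54.0 CPM in heterozygous and 62.7 and 57.6 CPM in wild-type libraries, and mutant and wild type overlapped. Its value was -0.16 (SE 0.13, 95% interval -0.48 to 0.15), adjusted p = 0.367 in edgeR's test. The ratio of Lef1 to Axin2 in RPKM, a scale that allows for gene length, was 1.22 and 1.44 in mutant, 0.796 and 0.808 in heterozygous and 0.670 and 0.704 in wild-type libraries. Lef1 was thus the more abundant transcript of the pair in both mutant libraries and Axin2 in the other 4.

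Sp5 (chromosome 2, 70474923 to 70477729, plus strand), a zinc finger repressor that many Wnt-responsive cells switch on, varied least. It was at 24.3 and 25.8 CPM in mutant, 25.3 and 23.7 CPM in heterozygous and 24.3 and 26.8 CPM in wild-type libraries, with all 3 genotypes overlapping. Mutant over wild type gave a log2 fold change of -0.03 (SE 0.09, adjusted p = 0.809, edgeR) in the main scaling. Its 95% interval of -0.25 to 0.19 does not reach the size of the Axin2 change. Scaled to neural progenitor genes, Sp5 was at 0.77 (adjusted p = 0.00174, edgeR), where 77.4% of all genes passed. This is the gene whose promoter held both core words. Notum (chromosome 11, 120653788 to 120661175, minus strand), a secreted enzyme that removes the lipid from Wnt proteins, was the least abundant of the 10. It had 127 and 203 reads in mutant, 68 and 138 in heterozygous and 199 and 184 in wild-type libraries. In CPM these were 3.38 and 6.92 in mutant, 2.19 and 4.62 in heterozygous and 4.81 and 5.23 in wild-type libraries. The larger library was 2.05 times the smaller in mutant and 2.11 times in heterozygous heads. Its mutant against wild-type log2 fold change of 0.03 (SE 0.46) had a 95% interval of -1.09 to 1.15, so a change the size of that of Axin2 in either direction was not detectable here.

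**Figure D2:**
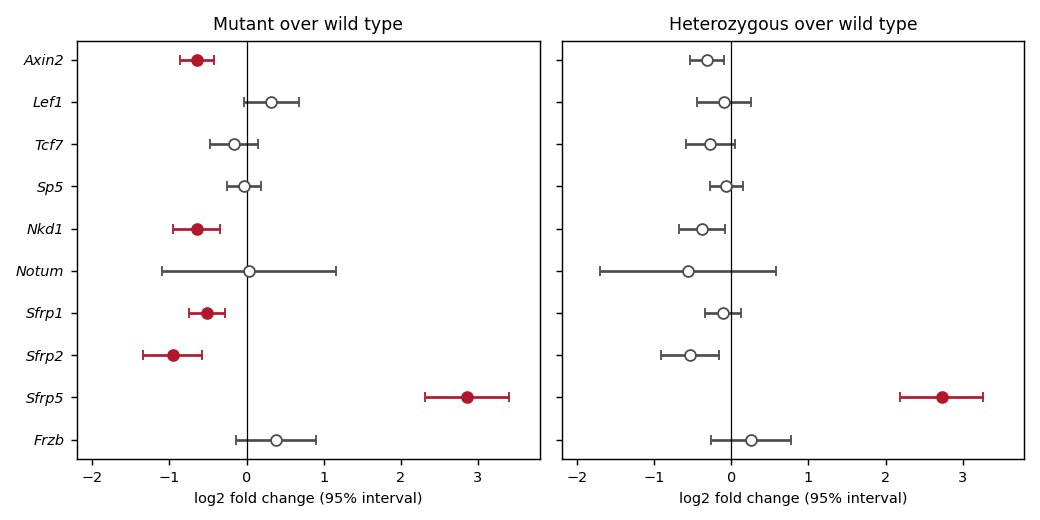
Log2 fold change of each gene with its 95% interval in mutant over wild-type heads (left) and heterozygous over wild-type heads (right), 2 libraries a group; filled symbols passed edgeR's quasi-likelihood test at an adjusted p of 0.05. In mutant heads Axin2, Nkd1, Sfrp1 and Sfrp2 lie left of 0 (the first 3 turn sign when scaled to neural progenitor genes) and Sfrp5 far right; in heterozygous heads Sfrp5 alone passed.

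Among the inhibitors, Sfrp1 and Sfrp2, both of which are expressed in early neural tissue of the mouse, fell in mutant heads. Sfrp1 (chromosome 8, 23411502 to 23449632, plus strand) was at 177 and 215 CPM in mutant, 258 and 259 CPM in heterozygous and 273 and 284 CPM in wild-type libraries. Both mutant libraries were below all others, whereas heterozygous libraries lay just under wild type. Relative to wild type the log2 fold change of Sfrp1 came to -0.51 (SE 0.09, adjusted p = 0.0125, edgeR) in mutant heads, and -0.11 (SE 0.09, adjusted p = 0.521, edgeR) in heterozygous heads. Set against heterozygous heads the mutant value was -0.40 (SE 0.09, adjusted p = 0.106, edgeR), which did not pass. Taking files as attached, mutant over wild type gave 0.15 (SE 0.25, adjusted p = 1.00, edgeR).

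Sfrp2 (chromosome 3, 83766321 to 83774316, plus strand) was at 27.0 and 33.8 CPM in mutant, 36.1 and 45.1 CPM in heterozygous and 62.2 and 55.5 CPM in wild-type libraries. The genotypes did not overlap, and the mutant mean was 51.6% of the wild-type mean and the heterozygous mean 68.9% of it. On the log2 scale the difference was -0.96 (SE 0.15, adjusted p = 0.00888, edgeR) in mutant and -0.54 (SE 0.15, adjusted p = 0.108, edgeR) in heterozygous against wild-type heads. Taking files as attached, the mutant comparison gave 0.00035 (SE 0.47, adjusted p = 1.00, edgeR).

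Sfrp5 (chromosome 19, 42197971 to 42202252, minus strand), known in the mouse from the anterior visceral endoderm and later the foregut and heart-forming region, was the only one of the 10 to pass as higher in the main scaling. It was at 88.7 and 72.4 CPM in mutant, 87.6 and 59.5 CPM in heterozygous and 12.0 and 10.2 CPM in wild-type libraries. The reads behind them numbered 3334 and 2125 in mutant, 2719 and 1777 in heterozygous and 495 and 360 in wild-type libraries. All 4 libraries with the allele were several times above both wild-type libraries, and mutant and heterozygous libraries overlapped. For Sfrp5 the log2 fold change came to 2.86 (SE 0.22, 95% interval 2.31 to 3.40, adjusted p = 0.00105, edgeR) in mutant and 2.73 (SE 0.22, 95% interval 2.18 to 3.27, adjusted p = 0.00326, edgeR) in heterozygous against wild-type heads. Mutant against heterozygous heads gave 0.13 (SE 0.20, 95% interval -0.37 to 0.63, adjusted p = 0.744, edgeR). With the files as attached the values against wild type were -0.29 (SE 1.23) and 0.55 (SE 1.23), both with an adjusted p of 1.00 in edgeR's test.

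Frzb (chromosome 2, 80411970 to 80447625, minus strand), which in the frog Xenopus is a Wnt-binding product of the organizer, was at 72.4 and 71.9 CPM in mutant, 81.4 and 50.5 CPM in heterozygous and 57.0 and 53.8 CPM in wild-type libraries. The mutant libraries were almost equal and above both wild-type ones, while the heterozygous pair lay on either side of them. Mutant over wild type gave 0.38 on the log2 scale (SE 0.21, 95% interval -0.14 to 0.90), with an adjusted p of 0.216 in edgeR's test. The spread of the heterozygous libraries enters this test, and a fit with the mutant and wild-type libraries alone gave 0.38 with an adjusted p of 0.0171 (edgeR). Other tests on all the libraries did not pass it, with an adjusted p of 0.156 by DESeq2, 0.221 by edgeR's likelihood ratio test and 0.198 by limma-voom. Scaled to neural progenitor genes, Frzb was at 1.19 (adjusted p = 0.00329, edgeR), where 77.4% of all genes passed.

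In heterozygous against wild-type heads, Sfrp5 was the one gene of the 10 to pass, 1 higher and 0 lower, where 6.56% of all genes passed, 6.03% higher and 0.533% lower. Libraries did not overlap for 7 of the 10, 6 of them lower, as for 56.2% of all genes, 28.7% higher and 27.6% lower. The 6 were Axin2, Tcf7, Nkd1, Notum, Sfrp1 and Sfrp2. DESeq2's Wald test passed 4 of the 10 in that comparison, adding Axin2, Nkd1 and Sfrp2 as lower, and 12.4% of all the genes it tested. The likelihood ratio test of edgeR passed 3, adding Axin2 and Sfrp2, and 10.4% of all genes. In mutant against heterozygous heads 0 of the 10 passed edgeR's quasi-likelihood test, where 0.435% of all genes passed, 0.0724% higher and 0.362% lower, and 3228 of the genes tested had an unadjusted p under 0.05. DESeq2 passed Axin2 and Sfrp1 there as lower, and 9.78% of all the genes it tested. The likelihood ratio test passed Sfrp1 there, and 5.27% of all genes. Over the 6 libraries, 4 of the 10 (Axin2, Nkd1, Sfrp1 and Sfrp2) had each mutant library under each heterozygous and each of those under each wild-type library, an order that 11.5% of all genes tested showed. The mutant and heterozygous comparisons share the wild-type libraries.

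The 4 inhibitor genes were also summed, to show the share of each. On the RPKM scale the 4 inhibitor genes summed to 125 and 129 in mutant, 151 and 130 in heterozygous and 120 and 117 in wild-type libraries. Of that sum, Sfrp5 made up 37.2% and 29.6% in mutant, 30.5% and 24.1% in heterozygous and 5.28% and 4.62% in wild-type libraries. Sfrp1 made up 32.2% and 38.2% in mutant, 39.1% and 45.4% in heterozygous and 52.3% and 55.8% in wild-type libraries. Sfrp5 was thus far above its wild-type share in all 4 libraries with the allele, and Sfrp1 below. These are parts of 1 sum, so a rise of Sfrp5 by itself lowers the share of Sfrp1. In RPKM Sfrp1 was at 59.2 and 59.1 in heterozygous libraries, against 62.7 and 65.1 in wild-type libraries. Sfrp2 made up 10.8% and 13.1% in mutant, 11.9% and 17.3% in heterozygous and 26.0% and 23.8% in wild-type libraries. The ratio of Sfrp1 to Sfrp5 was 0.866 and 1.29 in mutant, 1.28 and 1.89 in heterozygous and 9.91 and 12.1 in wild-type libraries. The 6 target genes summed to 90.0 and 107 RPKM in mutant, 89.4 and 105 in heterozygous and 116 and 115 in wild-type libraries.

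**Figure D3:**
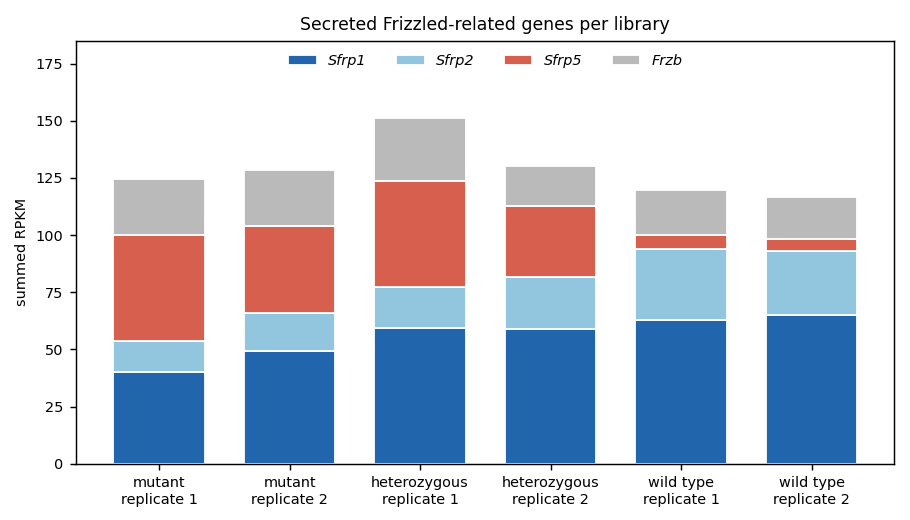
Stacked RPKM of Sfrp1, Sfrp2, Sfrp5 and Frzb in each library, mutant, heterozygous and wild type from left to right, 2 libraries each. Sfrp5 makes up 24.1% to 37.2% of the stack in the 4 libraries with the allele, against 4.62% and 5.28% in wild type, while the stacks range from 117 to 151 RPKM.

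Ordered by mean RPKM, wild-type heads had Sfrp1 first at 63.9 ± 1.74 (SD, n = 2), then Axin2 at 31.3 ± 0.380, Sfrp2 at 29.5 ± 2.43, Tcf7 at 26.9 ± 1.65, Lef1 at 21.5 ± 1.01 and Nkd1 at 21.4 ± 1.27. Frzb at 19.0 ± 0.815, Sp5 at 12.2 ± 0.831, Sfrp5 at 5.86 ± 0.656 and Notum at 2.49 ± 0.143 followed. The libraries of Axin2 and Sfrp2, of Sfrp2 and Tcf7, and of Lef1 and Nkd1 overlapped, so those neighbours were not separated. In mutant heads Sfrp1 at 44.6 ± 6.34 and Sfrp5 at 42.2 ± 5.88 led and overlapped. Lef1 at 26.7 ± 4.98, Frzb at 24.6 ± 0.0346 and Tcf7 at 23.9 ± 3.39 came next without separation, ahead of Axin2 at 20.0 ± 1.41.

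Tissue marker genes also differed between the genotypes, and in bulk RNA fewer cells of a type and less RNA per cell cannot be told apart. The 13 neural progenitor genes summed to 576 and 622 CPM in mutant, 844 and 965 in heterozygous and 1130 and 1049 in wild-type libraries, the same order of genotypes as Axin2, Nkd1, Sfrp1 and Sfrp2. Of these 13 genes, 10 fell and 0 rose in mutant heads. The 12 forebrain and midbrain genes, at 141 and 78.9 CPM in mutant, 272 and 291 in heterozygous and 430.1 and 331 in wild-type libraries, had the same order, and 10 of them fell. So did the 7 neural crest genes, at 147 and 110.5 CPM in mutant, 170.5 and 289 in heterozygous and 424 and 477 in wild-type libraries, of which 5 fell and 1 rose. The sum of the 7 surface ectoderm genes had the opposite order, at 1044 and 885 CPM in mutant, 682 and 522 in heterozygous and 344 and 347 in wild-type libraries. Only 2 of them were higher and 1 lower in mutant against wild-type heads. Their median log2 fold change there was 0.24, so the order of the sum need not hold for each gene. The 12 yolk sac visceral endoderm genes summed to 5006 and 4229 CPM in mutant, 2688 and 1926 in heterozygous and 10.2 and 18.2 in wild-type libraries, and all 12 rose in both comparisons with wild type. Of that list Apoa4 was at 0 reads in a wild-type library. The 10 heart genes summed to 1737 and 1015 CPM in mutant, 1582 and 2574 in heterozygous and 212 and 99.1 in wild-type libraries, with 8 higher in mutant and 7 in heterozygous heads. Sfrp5 was thus high in the libraries in which both lists were high. Within the mutant pair Sfrp5 and both lists were higher in replicate 1. Within the heterozygous pair Sfrp5 and the yolk sac list were higher in replicate 1 and the heart list in replicate 2. The surface ectoderm sum was also higher in replicate 1 of both pairs, so this order was not particular to the yolk sac list. The summed CPM of the 8 foregut endoderm genes differed less, at 112 and 135 in mutant, 111 and 102 in heterozygous and 85.7 and 107 in wild-type libraries. Of these 8 genes, 4 were higher and 1 lower in mutant against wild-type heads, where 30.6% of all genes passed. In heterozygous against wild-type heads 2 were higher and 0 lower, where 6.56% of all genes passed. The part of these tissues in the changes of Sfrp5 and of the lower genes was not tested.

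**Figure D4:**
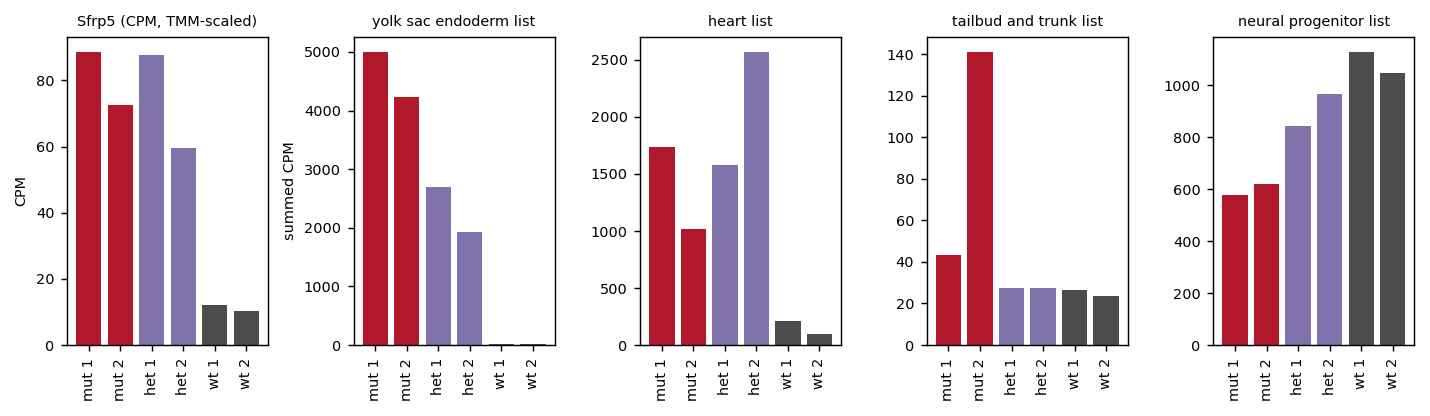
Sfrp5 in CPM and the summed CPM of 4 marker lists in each library, mutant, heterozygous and wild type from left to right (linear axes from 0, a scale of its own in each panel). Sfrp5, the yolk sac list and the heart list are high in all 4 libraries with the allele, the tailbud list in mutant replicate 2, and the neural list stands at 576 and 622 CPM in mutant against 1130 and 1049 CPM in wild-type libraries.

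Tailbud and somite markers set mutant replicate 2 apart. The 10 tailbud and trunk genes summed to 43.5 and 141 CPM in mutant, 27.6 and 27.4 in heterozygous and 26.4 and 23.7 in wild-type libraries, with 2 of the 10 at 0 reads in both heterozygous libraries. The 8 somite genes summed to 202 and 386 CPM in mutant, 161 and 189 in heterozygous and 144 and 87.2 in wild-type libraries. Lef1, Notum and Tcf7, which the tailbud and paraxial mesoderm of the mouse also express, were each higher in mutant replicate 2 than in replicate 1, but so were Axin2, Sp5, Nkd1, Sfrp1 and Sfrp2, 8 of the 10 in all. The larger mutant library was 2.05 times the smaller for Notum, 1.30 times for Lef1, 1.25 times for Sfrp2 and 1.22 times for Tcf7 and for Sfrp1. Without mutant replicate 2 mutant over wild type gave a log2 fold change for Lef1 of 0.11, for Notum of -0.58 and for Tcf7 of -0.32, and without replicate 1 of 0.50, 0.47 and -0.02. None passed edgeR's test in either case, and the part of these tissues was not tested.

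Other genes of the pathway, from lists chosen with earlier results of these data known, moved in both directions in mutant against wild-type heads, where 30.6% of all genes passed. Scaling to neural progenitor genes adds about 0.81 to each value, so falls smaller than that lose their direction under it. Of 19 other targets and feedback genes tested, 5 rose and 5 fell, with a median log2 fold change of 0.12. Bambi, a decoy receptor of BMP signalling that Wnt also induces, rose by 1.35 (SE 0.15) on the log2 scale and Trabd2b, a membrane protease that inactivates Wnts, by 0.63 (SE 0.11). The caudal gene Cdx2 rose by 6.32 (SE 0.82), to 10.2 and 33.6 CPM in mutant, against 0.411 and 0.114 CPM in wild-type libraries. The growth regulator Myc changed by -0.92 (SE 0.16) and Sp8, an Sp-family factor of the forebrain and limb, by -0.59 (SE 0.11). The adjusted p of these 5 lay between 0.00277 and 0.0130 in edgeR's test.

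Of 16 other inhibitors tested, secreted or not, 5 rose and 2 fell. Dact2 at 2.02 (SE 0.24) and Dact1 at 0.78 (SE 0.10), which encode Dishevelled-binding proteins, and the secreted antagonist gene Dkk2 at 1.58 (SE 0.35) rose. Kremen1, whose product is a receptor for Dickkopf proteins, changed by -0.53 (SE 0.09), and Sostdc1, a secreted BMP and Wnt antagonist, by -4.58 (SE 1.02), the last at 0.0798 and 0.136 CPM in mutant, against 2.20 and 3.04 CPM in wild-type libraries. Dkk1, the head inducer that blocks Lrp5 and Lrp6, was at 20.7 and 14.6 CPM in mutant, against 19.4 and 20.5 CPM in wild-type libraries, and is named here after its values were seen. Its log2 fold change of -0.17 (SE 0.24) did not pass (adjusted p = 0.615, edgeR).

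Of 25 genes of the destruction complex, the nucleus and Wnt export, 3 rose and 7 fell. Tle4, a Groucho-type corepressor of TCF factors, changed by -1.04 (SE 0.09) and its relative Tle1 by -0.42 (SE 0.06). Ctnnb1, the β-catenin gene, and Gsk3b, the kinase that marks β-catenin for degradation, each changed by -0.32 (SE 0.05 and 0.04). The β-catenin coactivator gene Bcl9l rose by 0.77 (SE 0.13) and Tnks2, whose product marks axin for degradation, by 0.24 (SE 0.06). The TCF genes Tcf7l1 at -0.04 (SE 0.06) and Tcf7l2 at -0.02 (SE 0.08), the other members of the family of Lef1 and Tcf7, named after their values were seen, did not pass. Of the falls named, only that of Tle4 exceeds the 0.81 by which scaling to neural progenitor genes raises the median.

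Of 18 Wnt ligand genes tested, 5 rose and 4 fell. Wnt5a at 1.02 (SE 0.14), Wnt2b at 1.51 (SE 0.18) and Wnt11 at 2.44 (SE 0.48) rose, while Wnt8b at -3.20 (SE 0.63), a gene of the forebrain, and Wnt9b at -2.18 (SE 0.37) fell. Of 12 receptor genes 2 rose and 3 fell. Fzd4 rose by 1.48 (SE 0.09) and Lrp5 by 0.67 (SE 0.08), and Fzd3 changed by -1.22 (SE 0.14) and Fzd9 by -0.998 (SE 0.20). In heterozygous against wild-type heads the same lists gave 2 of 19 targets, 2 of 16 inhibitors, 0 of 25 complex genes as higher with 1 lower, 0 of 18 ligands and 1 of 12 receptors, and 6.56% of all genes passed. The markers of yolk sac, heart and neural tissue given above also differed between the genotypes, and the part of these tissues in the changes of the pathway genes was not tested.

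Across the 6 libraries, genes outside the set were ordered by how like Axin2 their log2 CPM was, leaving out predicted genes (Gm and Rik symbols). The first were Cadm1, Faim, Flrt3, Nsg1 and Car12, with Pearson's r of 0.999 for Cadm1 and 0.998 for the others. This is a description over libraries that share their genotype and tissue makeup. Cadm1 was at 122 and 134 CPM in mutant, 148 and 170 CPM in heterozygous and 193 and 196 CPM in wild-type libraries, steps close to those of Axin2. Within the set, r with Axin2 was 0.984 for Sfrp2, 0.975 for Nkd1 and 0.901 for Sfrp1, and 0.169 for Sp5, 0.273 for Notum and 0.593 for Tcf7. It was negative for Lef1 at -0.39, Frzb at -0.79 and Sfrp5 at -0.88.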

How the data were processed

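RNA of dissected heads was polyA-selected and sequenced in strand-specific read pairs on an Illumina HiSeq, per the labels' protocols. Per the submitters' processing notes, the tools include HTSeq 0.6.1p2, TopHat2 2.0.11, edgeR 3.8.6, cutadapt 1.8 and Trim Galore 0.4.0, and the build is mm10. No source used here gives the annotation or the strand setting, so reads of antisense genes that overlap Axin2, Lef1, Tcf7, Notum and Sfrp2 in GENCODE cannot be told apart. The authors deposited raw counts per gene symbol, with 5 summary lines left out of totals (no feature 8.93% to 10.5% and no unique alignment 12.7% to 14.5% of read pairs). Their table of the series, deposited by the authors, holds RPKM values under sample titles, log2 fold changes and log2 average CPM, a test score (a likelihood ratio), false discovery rates and p-values. Its second comparison was not analysed here.

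Count files were taken by the title in their name, after each was checked against the RPKM columns: zeros had to agree at all genes, and count over RPKM, relative to wild-type replicate 1, had to lie within 0.1% of 1 constant at genes above 50 counts. The main test was edgeR 4.0.16 under R 4.3.3 (glmQLFit, glmQLFTest, TMM, filterByExpr, all 6 libraries in 1 fit). It had 3 residual degrees of freedom, with Benjamini-Hochberg adjustment over 15187 genes. The fit was also run on simulated counts in which a small share of genes changed, which does not test the choice of scaling. Each standard error is the log2 fold change, unsigned, over the root of its F statistic. CPM of single genes use TMM sizes, list sums use library totals, and 3 reads equal 0.0742 to 0.102 CPM. The common biological coefficient of variation was 0.182, and 0.387 with files as attached. Alternatives used limma 3.58.1 and DESeq2 1.42.0. Of each pathway list, the up to 4 genes with the smallest p that passed in mutant against wild type are named, with up to 2 of the rarer direction. The genes and lists were chosen with earlier results of these data known. Positions are from GENCODE release M21 on GRCm38, the assembly of mm10.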

Additional observations from a re-analysis of the deposited data

How the results depend on the processing

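No paired analysis was possible because the labels carry no replicate numbers shared between genotypes. The count of genes passed, 5 in mutant against wild type, was 0 with the files as attached and 4 to 6 on leaving out single libraries. In heterozygous against wild type, 1 by the main test, it was 0 with the files as attached, 4 by DESeq2, 3 by the likelihood ratio test and 1 to 3 on leaving out single libraries; without heterozygous replicate 2 it was 3, Nkd1 and Frzb being added. In mutant against heterozygous, 0 by the main test, it was 2 by DESeq2, 1 by the likelihood ratio test and 7, all higher, when scaled to neural progenitor genes. That scaling also gave 5 higher (Lef1, Tcf7, Sp5, Sfrp5 and Frzb) and 0 lower in mutant against wild type. It raised the median over all genes by 0.81 there, with 0.25 for heterozygous over wild type and 0.56 for mutant over heterozygous. Over all genes, 4654 passed in mutant against wild type (1997 without mutant replicate 1 and 11750 under that scaling), 997 in heterozygous against wild type (313 without heterozygous replicate 1 and 1890 by DESeq2) and 66 in mutant against heterozygous (11 without heterozygous replicate 2, 1313 by DESeq2 and 9769 under that scaling).

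Log2 fold changes that changed sign with the files as attached were, for mutant against wild type, Axin2 0.070, Tcf7 0.068, Sp5 0.12, Sfrp1 0.15, Sfrp2 0.00035, Sfrp5 -0.29 and Frzb -0.043, for heterozygous against wild type Axin2 0.0029, Sp5 0.011 and Sfrp1 0.20, and for mutant against heterozygous Axin2 0.067, Nkd1 0.074, Sfrp2 0.14, Sfrp5 -0.83 and Frzb -0.071. Scaled to neural progenitor genes they were, in the same order of comparisons, Axin2 0.17, Tcf7 0.64, Sp5 0.77, Nkd1 0.16 and Sfrp1 0.29, then Lef1 0.15, Sp5 0.19 and Sfrp1 0.14, then Axin2 0.24, Nkd1 0.30, Sfrp1 0.16 and Sfrp2 0.15. Sfrp2 in mutant against wild type lost its call there, at -0.15 (adjusted p = 0.332, edgeR). Relative to the shift of all genes, Axin2 at -0.64, Nkd1 at -0.65 and Sfrp1 at -0.51 in mutant against wild type return to their main values by construction. This is no separate test. Notum in mutant against wild type was -0.015 with library totals, -0.10 by limma-voom, and -0.056 and -0.025 by limma on log2(RPKM + 0.1) and log2(RPKM + 1). Leaving out single libraries turned the sign of Sp5 (-0.087 to 0.026) and Notum (-0.58 to 0.47) in mutant against wild type, of Lef1 (-0.23 to 0.035), Frzb (-0.13 to 0.56) and Sp5 (-0.13 to 0.0041) in heterozygous against wild type, and of Sfrp5 (-0.13 to 0.43), Tcf7 (-0.052 to 0.24), Sp5 (-0.024 to 0.076), Notum (-0.021 to 1.22) and Frzb (-0.18 to 0.51) in mutant against heterozygous; the cause was not tested. Axin2, Sfrp1, Sfrp2 and Sfrp5 passed in mutant against wild type in the 15 alternatives other than files as attached and neural scaling, and Nkd1 in 12 of them. Notum had the fewest reads, 68 to 203 a library, and its libraries differed 2.05-fold in mutant and 2.11-fold in heterozygous heads.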
